A study of Homo sapiens with 6 samples.

Results

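The replication-dependent histone genes encode the linker histone H1 and the core histones H2A, H2B, H3 and H4 that package newly copied DNA. They were taken as every gene symbol in the count tables written as H1-1 to H1-6 or as H2AC, H2BC, H3C or H4C with a number, and older HIST symbols were searched for as well. The rule found 55 of the 23059 genes in the tables: 5 of H1, 13 of H2A, 15 of H2B, 10 of H3 and 12 of H4. By RefSeq, 45 lie on chromosome 6 and 10 on chromosome 1.

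Cells of HCC-LM3, a human hepatocellular carcinoma line, received apigenin (a flavone found in plants) or DMSO, the solvent control, and 3 libraries of total RNA were sequenced in each group. The labels call the samples biological replicates and give neither the dose nor the length of treatment. Nothing else says that they were separate cultures, so p-values measure the spread between these samples, which may be technical. The libraries held 33882145 to 37983636 counts, so that 1 read is 0.0263 to 0.0295 CPM (counts scaled to the library total) and a count of 0 allows up to 0.079 to 0.0885 CPM (3 counts, counting error only). Of the hepatocyte markers ALB had 52.9 ± 1.23 CPM with apigenin and 123 ± 3.3 CPM with DMSO, and APOA2 was near 0 in both groups (0.00982 and 0.00964 CPM). KRT8, a keratin of liver epithelium, stood at 2386 and 2550 CPM. Of 13 tested liver markers 3 were called lower (23.1%), ALB, APOB and SERPINA1, against 4.22% of all tested genes. Of 13 markers of other cell types with values, 7 passed the filter on low counts and 0 were called. PTPRC, CD3E, COL1A2, COL3A1 and ACTA2 had group means of no more than 0.135 CPM. CD68 stood at 89.9 and 89.1 CPM and PECAM1 at 44.3 and 51 CPM with apigenin and DMSO. Levels of the remaining markers in that list are not given here.

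Most mRNAs end in a poly(A) tail. Replication-dependent histone mRNAs instead end just after a short hairpin, the histone stem-loop, which the protein SLBP binds, and they are made and kept mainly in S phase, when DNA is copied. Some of these genes can also give a longer transcript that runs past the stem-loop to an ordinary poly(A) signal, and such transcripts are known from cells that are not dividing. Replication-independent histone genes, such as H2AZ1 and H3-3B, make polyadenylated mRNA and are used outside S phase as well. A library that captures poly(A) tails recovers few mRNAs that end at the stem-loop. The labels name total RNA and the library kit, and do not say whether poly(A) RNA was captured or ribosomal RNA removed.

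The stem-loop is shown for 5 members because it is the element that sets how these mRNAs end. The sequences are from GENCODE 29 transcripts (GRCh38), 5′ to 3′, with the 16 bases of the stem and loop in capitals.
H2BC5: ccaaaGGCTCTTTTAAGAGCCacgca
H2BC21: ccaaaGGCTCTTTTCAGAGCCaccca
H2AC6: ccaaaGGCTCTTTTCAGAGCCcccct
H4C8: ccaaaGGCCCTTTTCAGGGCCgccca
H4C5: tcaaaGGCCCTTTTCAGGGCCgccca
They lie at chr6:26158582-26158607 on the plus strand (H2BC5), chr1:149886183-149886208 on the minus strand (H2BC21), chr6:26124664-26124689 on the plus strand (H2AC6), chr6:26285126-26285151 on the minus strand (H4C8) and chr6:26204996-26205021 on the plus strand (H4C5). Counted from the first capital, H2BC5 differs from H2BC21 by C10A, the last base of the loop, and H4C8 and H4C5 differ from H2BC21 by T4C and A13G, which face each other in the stem. H2BC4, H2BC7 and H3C8 carry the same C10A form, and 12 members carry the H2BC21 form.

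The hairpin was searched for as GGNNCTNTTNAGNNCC on the sense strand. It was found in transcripts of 24 of the 51 members with a GENCODE transcript, against 180 of 58676 genes in all (0.307%). The longest GENCODE transcript of H2BC12 has 381 bases and that of H1-2 has 642, and neither holds the motif; no match says only that these letters are not in these transcripts. A poly(A) signal, AATAAA or ATTAAA starting within 50 bases of a transcript's 3′ end, was found for 19 of the 51 members, against 45% of all genes. In 17 members both were found, so that transcripts of the same gene carry a stem-loop and end near a poly(A) signal. H4C11 is among them, but its signal, 29 bases from the transcript's end, lies before the stem-loop. Its transcript runs only 6 bases past the stem-loop. The transcript of H2BC21 runs 1729 bases past its stem-loop, and the longest of H2AC6 runs 1128 bases past it.

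The promoters of the members hold 3 known motifs more often than promoters at large, and 4 are shown because their genes are the most abundant H2A and H2B members. The RefSeq table (GRCh38.p14) holds a promoter for 52 of the 55 members. The sequences are the 150 bases before the gene start, 5′ to 3′ in the direction of the gene. The run of bases just after that start occurs in a GENCODE transcript of H2AC6. It does not occur in those of H2BC5, H2BC21 and H2BC12, so their starts rest on RefSeq. Capitals mark TATAAA (the TATA box), CCAAT (bound by NF-Y) and ATTTGCAT (the octamer, bound by POU2F1), each on either strand.
H2BC5: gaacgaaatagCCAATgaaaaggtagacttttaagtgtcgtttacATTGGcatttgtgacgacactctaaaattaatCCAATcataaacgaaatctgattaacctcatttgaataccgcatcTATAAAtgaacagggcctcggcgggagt
H2BC21: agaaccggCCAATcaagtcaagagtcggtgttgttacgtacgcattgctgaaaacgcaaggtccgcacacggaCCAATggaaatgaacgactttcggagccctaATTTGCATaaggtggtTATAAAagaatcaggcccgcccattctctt
H2BC12: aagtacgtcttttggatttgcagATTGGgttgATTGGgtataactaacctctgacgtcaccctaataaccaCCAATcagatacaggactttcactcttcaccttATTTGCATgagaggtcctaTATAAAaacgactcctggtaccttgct
H2AC6: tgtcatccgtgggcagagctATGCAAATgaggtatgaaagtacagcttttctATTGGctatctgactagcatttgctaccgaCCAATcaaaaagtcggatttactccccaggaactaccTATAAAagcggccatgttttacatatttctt
They lie at chr6:26157971-26158120 on the plus strand (H2BC5), chr1:149886683-149886832 on the minus strand (H2BC21), chr6:27146859-27147008 on the minus strand (H2BC12) and chr6:26124022-26124171 on the plus strand (H2AC6). H2BC21, H2BC12 and H2AC6 hold all 3 motifs in this window, and H2BC5 holds TATAAA and CCAAT.

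The TATA box was found in 29 of 52 members' promoters (55.8%), against 7.05% of all 27305 promoters in the same window. CCAAT was found in 43 (82.7%), against 24.4% of all. It was in all 5 H1, 13 H2A, 15 H2B and 9 H3 promoters and in 1 of 10 H4 promoters. The octamer was found in 12 of 15 H2B promoters (80%), 3 of 13 H2A, 1 of 9 H3, 0 of 10 H4 and 0 of 5 H1 promoters, against 0.985% of all. Neighbouring histone genes that point away from each other can share promoter sequence, so these counts are not independent.

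**Figure D1:**
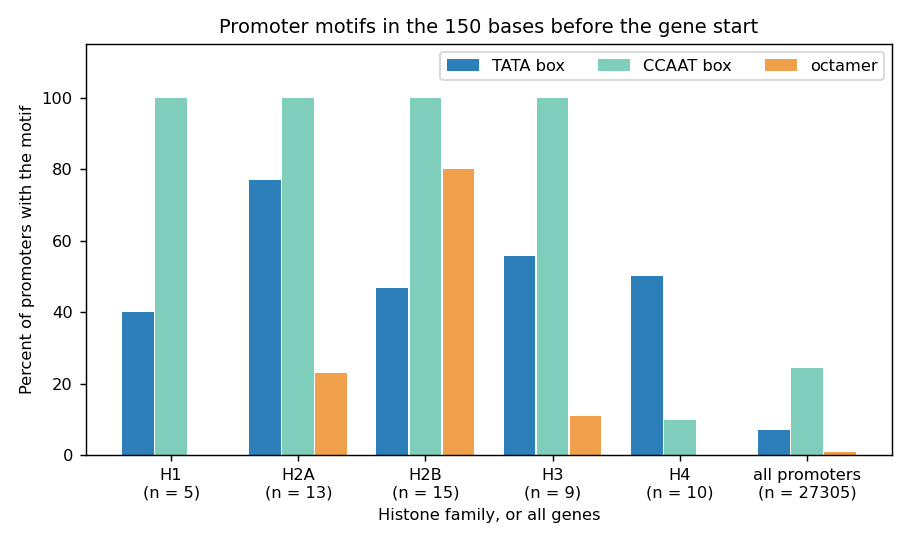
Percent of promoters with a TATA box, a CCAAT box or an octamer on either strand in the 150 bases before the gene start, for each histone family and for all promoters in the RefSeq table. CCAAT reaches 100% in H1, H2A, H2B and H3 and 10% in H4, and the octamer reaches 80% in H2B.

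The members had low levels beside other genes of dividing cells. Per length, the median member stood at 0.374 FPKM (counts scaled to gene length and library total) with apigenin and 0.378 FPKM with DMSO. The 13 replication-independent histone genes had medians of 75.3 and 65.8 FPKM, and 43 S phase genes medians of 19.5 and 17.8 FPKM in the same groups. H2AZ1, which encodes an H2A variant of gene starts, stood at 392 FPKM with apigenin and 366 FPKM with DMSO. H3-3B, which encodes the H3.3 variant, stood at 241 and 221 FPKM. PCNA, the sliding clamp of DNA polymerase, stood at 176 and 164 FPKM, and RRM2, a subunit of the enzyme that makes deoxynucleotides, at 60 and 63.2 FPKM.

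**Figure D2:**
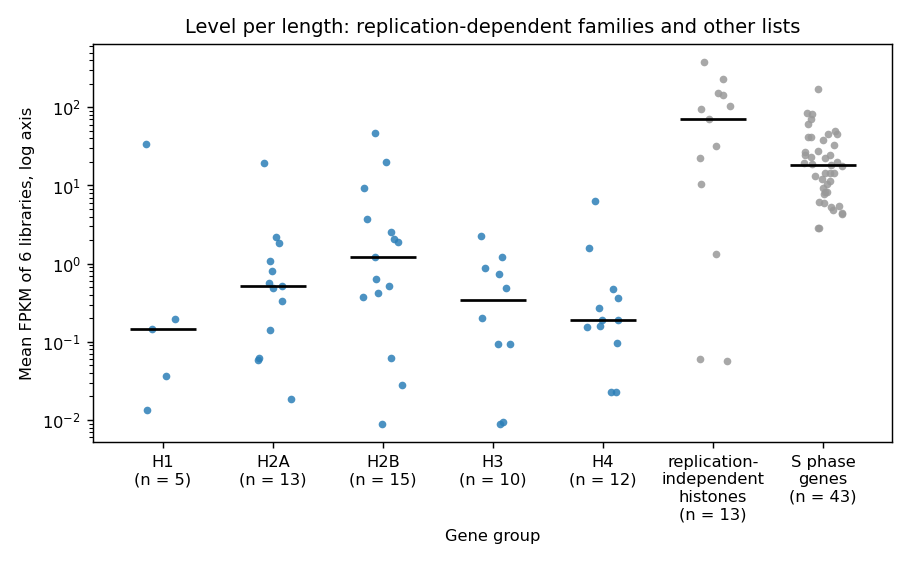
Mean FPKM over the 6 libraries (log axis) of each gene, 1 point per gene, for the 5 replication-dependent histone families, the replication-independent histone list and the S phase list, with a bar at each group's median. H1-2, H2AC6, H4C8 and the H2B genes H2BC12, H2BC21, H2BC5 and H2BC8 reach the range of the S phase genes (lowest BRIP1, 2.87 FPKM), and most H3 and H4 genes lie below 1 FPKM.

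The families were unequal. Together the 55 members held 5901, 6380 and 5836 counts in apigenin 1, 2 and 3, and 5385, 5182 and 5262 counts in DMSO 1, 2 and 3. H2B genes took 69.6% of all histone counts, H1 genes 15.7%, H2A genes 8.91%, H3 genes 3.02% and H4 genes 2.75%. The 12 H4 genes, which encode a core histone needed in equal number with H2B in each nucleosome, together had 162, 177 and 130 counts with apigenin and 139, 185 and 140 counts with DMSO. The most abundant 6 members, H2BC21, H2BC12, H1-2, H2BC5, H2AC6 and H2BC4, held 87.2% of histone counts and were also the only members with at least 100 counts in all 6 libraries. At the other end 28 members had under 50 counts over the 6 libraries. Of these, 8 had 0 counts in every DMSO library and no more than 6 counts in an apigenin library, and 1, H4C2, had 0 counts in every apigenin library and up to 6 with DMSO. These members were not tested between the groups. The share of all genes with 0 counts throughout a group is not given here, so the 2 counts are not read as a difference.

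How the reads split by annotated end or span depended on the annotation. By GENCODE alone, the 19 members with a poly(A) signal near a transcript end held 52.5% of histone counts and the 32 without one 46.8%. RefSeq gives a span over 1000 nucleotides to 8 members, against 409 for H4C8, and these 8 held 68.5% of histone counts (67.8 to 69.6% by library). The span is an extent along the genome and need not mean a long transcript. That of H2BC12 is 8566 nucleotides, with a counted length of 887. H2BC12 alone held 26.5%, and it has a long RefSeq span but no poly(A) signal in its GENCODE transcript. With the 13 further members that have a poly(A) signal near a GENCODE transcript end, 21 members held 79.3%, with 81.1, 79.2 and 78.2% in the apigenin libraries and 79.5, 80.4 and 77.4% in the DMSO libraries. The other 34 members held 20.7%, of which H1-2 alone made 15.5%. Without H1-2 the remaining 33 members held 5.15% of histone counts, with a median of 24 counts over 6 libraries. The 21 members were also unequal. Their median was 141 counts over 6 libraries, and H2BC21 and H2BC12 together made 54.6% of all histone counts. Both features were chosen after the levels were seen, and the shares are given as a description.

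What the levels say of library type and S phase is limited to this. Apart from H1-2, the 33 members with neither feature held few counts beside S phase genes. So did many of the 21 members with a feature, whose median was 141 counts over 6 libraries. Some of the 33 also have a transcript that runs past the stem-loop, as H2BC8 does by 1059 bases (391 of their 1748 counts). Those values hold the recovery of RNA without a poly(A) tail, the share of cells in S phase and the RNA per cell, and in bulk samples these cannot be told apart. A list of 35 small RNAs without poly(A) tails, chosen as a check of library type, was not analysed here. Library type was therefore not tested, and the members' counts were not read as a measure of S phase.

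With apigenin, H2BC5 rose and no other member passed the test. H2BC5 (chromosome 6, 26158121 to 26171349), an H2B gene with 3 RefSeq transcripts, had 14.2, 13.25 and 16.3 CPM with apigenin, against 9.17, 9.46 and 10.5 CPM with DMSO. All apigenin libraries stood above all DMSO libraries, and the rise was 1.5-fold (log2 fold change 0.59 ± 0.118 SE, 95% interval 0.33 to 0.84, edgeR quasi-likelihood adjusted p = 0.00985). Its call was lost without DMSO 1 (log2 fold change 0.55, adjusted p = 0.0719) or without DMSO 2 (0.57, adjusted p = 0.0604). Among the 4 promoters shown, that of H2BC5 is the one with no octamer match, and 12 of 15 H2B promoters hold one. Whether the motif bears on the rise was not tested. The RefSeq span of H2BC5 overlaps H2BC6-AS1 and LARP1P1, and whether counting used strand is not stated.

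Of the 55 members 24 passed the filter on low counts and were tested, and the other 31 had no more than 23 counts in any library. A member could pass through the group where it is higher. Of the 24, 1 rose, 0 fell by edgeR's quasi-likelihood test and 23 did not pass. Over all 15173 tested genes 6.99% were called, 2.76% higher and 4.22% lower. At an unadjusted p under 0.05, 4 members were higher and 0 lower, against 11.7% and 12.6% of all tested genes. DESeq2 called the same member alone.

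None of the other abundant members passed the test. H2BC21 (chromosome 1, 149884459 to 149886682), an H2B gene with a long annotated 3′ end, had 51.2, 49.6 and 43 CPM with apigenin, against 41.1, 38.3 and 43.7 CPM with DMSO. Apigenin 3 lay below DMSO 3, so the groups overlapped (log2 fold change 0.22 ± 0.083, adjusted p = 0.111). Without apigenin 3 it was called (0.30, adjusted p = 0.00829).

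H2BC12 (chromosome 6, 27138293 to 27146858) had 44.6, 41.8 and 47.7 CPM with apigenin, against 36.8, 39.3 and 41.4 CPM with DMSO. The groups did not overlap, and the difference did not pass (log2 fold change 0.19 ± 0.077, adjusted p = 0.145); without apigenin 2 it did (0.24, adjusted p = 0.0422). Its RefSeq span overlaps H4C9, and 74.1% of the 50-base words in its GENCODE transcript also occur in another gene's transcript, so its level is uncertain.

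H1-2, a linker histone gene, had 24.6, 24.7 and 30 CPM with apigenin, against 22.6, 20.3 and 25.6 CPM with DMSO. DMSO 3 lay above apigenin 1 and apigenin 2 (log2 fold change 0.21 ± 0.107, adjusted p = 0.247). No 50-base word of its GENCODE transcript occurs in another gene's transcript.

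H2AC6 and H2BC4 are neighbours on chromosome 6 that point away from each other, with 245 bases between their RefSeq spans. H2AC6 had 11.1, 11.1 and 11.4 CPM with apigenin, against 9.22, 9.44 and 7.67 CPM with DMSO. The apigenin libraries were all higher (log2 fold change 0.35 ± 0.121, adjusted p = 0.0947). H2BC4 had 5.57, 4.04 and 5.56 CPM with apigenin, against 5.84, 3.93 and 4.83 CPM with DMSO. Its groups overlapped across their range (log2 fold change 0.05, 95% interval -0.36 to 0.46). Whether the pair differed in response was not tested.

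**Figure D3:**
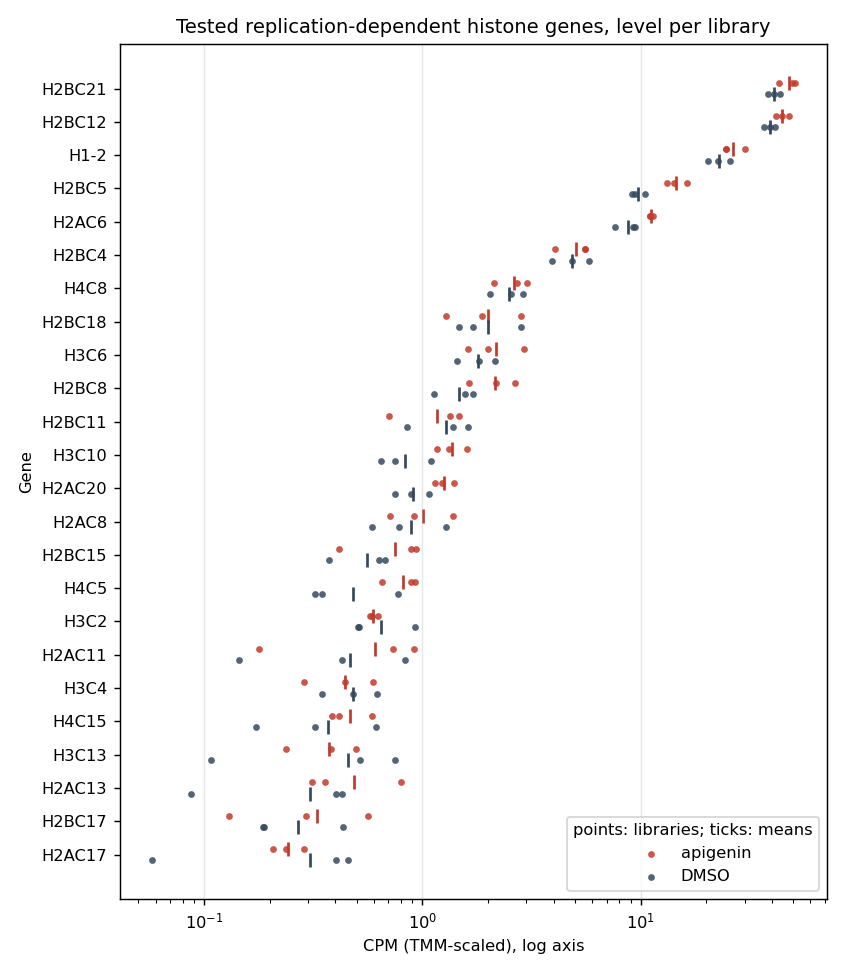
CPM (log axis) of the 24 tested members in each library, with apigenin points above DMSO points in each row and a tick at each group's mean. The apigenin libraries lie above the DMSO libraries without overlap for H2BC12, H2BC5, H2AC6, H3C10 and H2AC20, and the spread within groups grows towards the low members.

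Among the less abundant members the intervals were wide. H4C8, the most abundant H4 gene, had 3.01, 2.71 and 2.14 CPM with apigenin, against 2.56, 2.89 and 2.05 CPM with DMSO (log2 fold change 0.07, 95% interval -0.45 to 0.58). H3C10, an H3 gene, had 1.33, 1.17 and 1.61 CPM with apigenin, against 0.646, 1.1 and 0.752 CPM with DMSO. Its groups did not overlap, and its log2 fold change of 0.71 (95% interval -0.10 to 1.53) did not pass (edgeR adjusted p = 0.271).

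The highest and lowest fold changes came from low members. H4C5 had the largest estimate (0.76, 95% interval -0.32 to 1.83) and H2AC13 the third largest (0.65, -0.76 to 2.06), with under 1 CPM in every library. H2AC17 (-0.33 ± 0.711 SE), H3C13 (-0.29 ± 0.660) and H2BC11 (-0.14 ± 0.396) had the lowest. H2BC8 stood at 0.56 (-0.09 to 1.21), H3C6 at 0.27 (-0.37 to 0.91) and H2BC18, which overlaps FCGR1A, at 0.00 (-0.74 to 0.73). Each of these intervals holds 0.

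**Figure D4:**
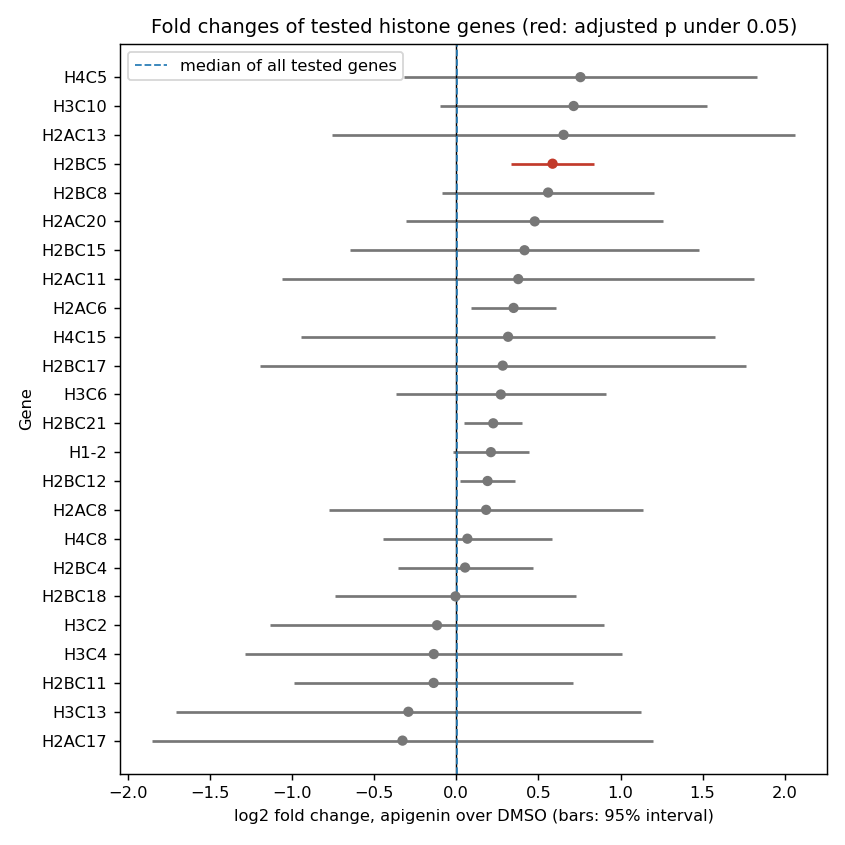
Log2 fold change of apigenin over DMSO with its 95% interval for the 24 tested members, ordered by size, with the dashed line at the median of all tested genes (0.00). H2BC5, in red, is the member with an adjusted p under 0.05, and the intervals of most others cross 0.

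By family the median log2 fold change of the tested members was 0.36 for 6 H2A genes, 0.22 for 9 H2B genes, -0.12 for 5 H3 genes and 0.32 for 3 H4 genes, and 0.21 for H1-2, the tested H1 gene. Over the 24 it was 0.25, and 18 were above 0. All 15173 tested genes had a median of 0.00, and 7711 were above 0. The 3036 tested genes of shortest length, up to 1987 nucleotides, had a median of 0.14, and 2194 were above 0. Among these 4.41% of genes were called higher and 0.494% lower. They were not matched in length to the tested members, whose median length was 514 nucleotides. The groups did not overlap, with apigenin higher, for 5 of 24 members (20.8%), against 14.4% of all tested genes and 21.8% of those 3036. For 0 members were they apart with apigenin lower, against 15% of all tested genes. The 5 are near the share among short genes.

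In the apigenin libraries levels relative to DMSO fell with gene length, to an unequal degree. Tested members had a median length of 514 nucleotides, against 3872 for all tested genes. Relative to the DMSO mean, log2 CPM changed per doubling of length by -0.07, -0.02 and -0.15 in apigenin 1, 2 and 3. In DMSO 1, 2 and 3 the change was 0.0015, -0.0047 and 0.0032. The DMSO slopes cancel out by that choice of reference, so they show only the spread among the DMSO libraries. The median tested member stood 0.30, 0.25 and 0.20 above the DMSO mean in apigenin 1, 2 and 3, and at 0.02, 0.02 and -0.05 in DMSO 1, 2 and 3. The median of the 3036 shortest tested genes stood at 0.12, 0.03 and 0.27 in apigenin 1, 2 and 3. It was highest in apigenin 3, the library with the steepest slope, whereas the median member was lowest there among the apigenin libraries. H2BC12, H1-2, H2BC5 and H2AC6 each had their highest CPM in apigenin 3, while H2BC21 had its lowest apigenin value there. With each library's length trend removed the median member stood at 0.09. H2BC5 was still called (0.45, adjusted p = 0.0115), H2BC21 stood at 0.15, H2AC6 at 0.15, H2BC12 at 0.03 and H1-2 at 0.03. The deposited lengths of the members set the size of this correction. Its part in the members' shift beyond these values was not tested.

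**Figure D5:**
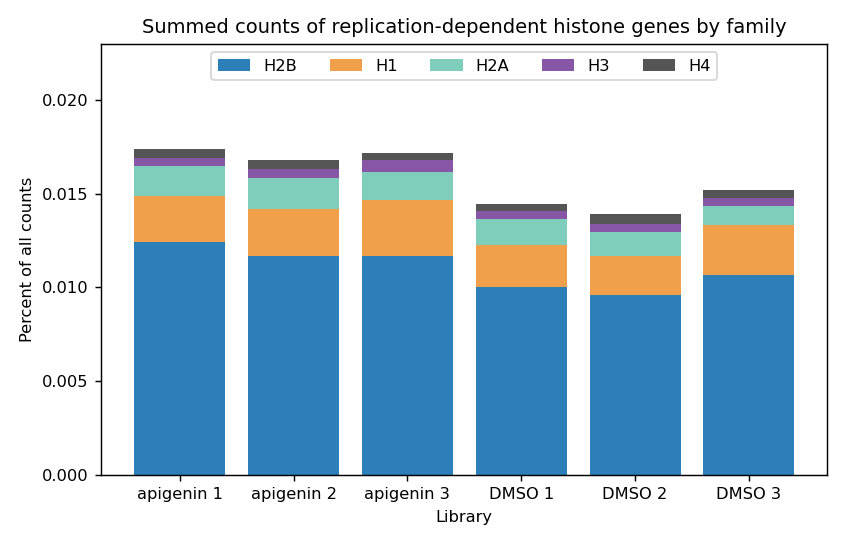
Percent of all counts in each library that fell on the 55 members, stacked by family. The apigenin libraries total 0.0168 to 0.0174% and the DMSO libraries 0.0139 to 0.0152%, and H2B genes make up most of each bar.

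As a share of all counts the 55 members took 0.0174, 0.0168 and 0.0172% in apigenin 1, 2 and 3, against 0.0145, 0.0139 and 0.0152% in DMSO 1, 2 and 3. The mean was 0.0171 ± 0.000311% with apigenin and 0.0145 ± 0.000644% with DMSO (SD, n = 3 each), a ratio of 1.18. The members with a RefSeq span over 1000 nucleotides and the other members had the same ratio, 1.18 each. The replication-independent list took 0.217 ± 0.0139% with apigenin and 0.206 ± 0.00283% with DMSO, a ratio of 1.05.

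Most genes that act on histone mRNA or in S phase did not pass, as held for most genes tested. Of all 15173 tested genes 6.99% were called. Of 26 genes of histone gene transcription and 3′ end processing 1 rose (3.85%), SLBP, and 25 did not pass. SLBP, which encodes the protein that binds the stem-loop, had 90, 85.8 and 92.2 CPM with apigenin, against 77.3, 75.9 and 74.6 CPM with DMSO (log2 fold change 0.23 ± 0.061, adjusted p = 0.0349). The groups did not overlap, and the call was lost with the length trend removed (0.13, adjusted p = 0.118), with limma on unfiltered FPKM (0.23, adjusted p = 0.0557), and without apigenin 1 or any of the 3 DMSO libraries (adjusted p of 0.126 to 0.169). NPAT, the coactivator of histone genes, stood at -0.09 ± 0.078 on the log2 scale, and CASP8AP2, its partner in the histone locus body, at -0.19 ± 0.094. LSM10 (0.09 ± 0.121) and LSM11 (-0.02 ± 0.112), of the U7 particle that cuts histone pre-mRNA, and ZNF473 (0.06 ± 0.076) did not pass.

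Of 22 histone chaperone and assembly genes 2 rose, 1 fell and 19 did not pass (13.6% called, against 6.99% of all tested genes). ASF1A, a chaperone of H3 and H4, rose by 0.29 ± 0.066 and HJURP, a chaperone of the centromere histone, by 0.22 ± 0.060, while ATRX, a chromatin remodeller with a length of 11584 nucleotides, fell by 0.38 ± 0.102 on the log2 scale. Of 13 replication-independent histone genes 11 were tested and 0 passed by edgeR, with a median log2 fold change of 0.10. H2AZ1 stood at 0.10 ± 0.069, H3-3A at 0.10 ± 0.056, H3-3B at 0.13 ± 0.061 and H2AX at 0.20 ± 0.073. In that list H2AX (unadjusted p = 0.0168) and H3-5 (unadjusted p = 0.00903) were under 0.05 in edgeR before adjustment.

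Of 43 S phase genes 2 rose, FEN1 and SLBP, and 41 did not pass, with a median log2 fold change of 0.01. The called share was 4.65%, against 6.99% of all tested genes. FEN1, the flap nuclease of lagging strand synthesis, had 151.5, 152.3 and 179.3 CPM with apigenin, against 123, 125.1 and 120.4 CPM with DMSO, and its groups did not overlap (0.39 ± 0.069, adjusted p = 0.00464). PCNA stood at 0.11 ± 0.072, RRM2 at -0.07 ± 0.054, CCNE1 at 0.14 ± 0.087 and CCNE2 at -0.17 ± 0.074, and none of these 4 passed. E2F1, a transcription factor of S phase entry, stood at 0.16 ± 0.068 and CCNA2, the cyclin of S phase and G2, at 0.02 ± 0.057; neither passed. Of 54 genes of G2 and M phase 1 rose, 5 fell and 48 did not pass, with a median of 0.00. The called share was 11.1%, and the gene that rose was HJURP, already counted with the chaperones. MKI67, a marker of cycling cells with a length of 13228 nucleotides, fell by 0.36 ± 0.090 on the log2 scale, GAS2L3 fell by 0.33 ± 0.067, ANP32E, a chaperone of H2AZ1's protein, fell by 0.22 ± 0.055 and NCAPD2, a condensin subunit, fell by 0.20 ± 0.055. With the length trend removed MKI67 stood at -0.19 and ATRX at -0.23, both still called, and without apigenin 3 MKI67 stood at -0.23. On both filtered FPKM settings with limma the calls of MKI67, ATRX and NCAPD2 were lost (adjusted p of 0.0578 to 0.0975). Except for GAS2L3 without DMSO 2, the calls of ASF1A, HJURP, ATRX, MKI67, GAS2L3, ANP32E and NCAPD2 were each lost without apigenin 1 or without any 1 of the 3 DMSO libraries. The highest adjusted p among their alternatives was 0.275, for ATRX.

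Family members are close copies, and reads that match several of them may be lost or split by the counting. Of the 51 members with a GENCODE transcript, 11 share more than 50% of their 50-base words with another gene's transcripts, among them H2BC12 and H4C15, and 20 share none, among them H1-2, H4C8, H4C5 and H3C10. Of H2BC5's words 5.36% are shared, of H2BC21's 8.11% and of H2AC6's 0.421%. The counted length of H2AC6 was 519 nucleotides, short of its longest GENCODE transcript of 1668, whereas that of H2BC21 was 2224 nucleotides, the whole RefSeq span.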

How the data were processed

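Total RNA of 6 HCC-LM3 samples (3 apigenin, 3 DMSO, grouped by title) was sequenced; per the labels' protocols the library kit was VAHTS Universal V6. The tools listed in the submitters' processing notes are fastp, HISAT2 and HTSeq, and the build GRCh38 (hg38), without versions. The authors deposited raw counts for each gene symbol, and FPKM values. The deposited FPKM equal the count over a fixed gene length and the library total for 100% of values above 0 (relative tolerance 0.0001), and this gave each gene's length. Totals were 33882145 to 37983636 counts, and intervals and floors cover counting error only.

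Groups were compared with edgeR 4.0.16 (R 4.3.3) quasi-likelihood tests on the counts of all 6 libraries, with TMM factors, the default low-count filter (15173 genes kept) and Benjamini-Hochberg adjustment over all tested genes at 0.05. The standard error is the log2 fold change over the root of F. Levels are TMM-scaled CPM as mean ± SD, or the deposited FPKM. The members and the gene lists were chosen with earlier results of these data known. Members named were the called one, the 10 of highest CPM, the most abundant of each family per length, and the 3 largest and smallest fold changes. Fixed regulators and up to 4 called genes of each list were also named. A gene that this rule also names is not reported here. CENPF was called in the G2 and M phase list beyond those 4, H3-5, BRIP1 and H2AC20 were named after their values were seen, and CD68 and PECAM1 likewise.

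Alternatives were DESeq2 1.42.0, other scaling factors and filters, the replicate number as a block, limma 3.58.1 on log2(FPKM + 1) or log2(FPKM + 0.1), each library's length trend removed (lowess, span 0.3), and each library left out. The trend removal without apigenin 3 was added after seeing the data. Replicates differed by more than counting noise (chi-square over degrees of freedom of 8.81 to 27.5 between apigenin and 4.35 to 5.15 between DMSO libraries). The steps were tested on simulated data. Promoters and gene positions are from RefSeq (GRCh38.p14) and transcripts from GENCODE 29, matched through symbols and gene IDs.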

Additional observations from a re-analysis of the deposited data

How the results depend on the processing

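H2BC5 kept its direction under all 19 alternatives (log2 fold change 0.43 to 0.65, adjusted p of 0.000278 to 0.0719) and its call under 16. The count of called members was 2 with limma on log2(FPKM + 1) or log2(FPKM + 0.1) after a filter of 0.5 FPKM (H2AC6 and H2BC5), 0 with limma on log2(FPKM + 1) without a filter, and 2 with the length trend removed and apigenin 3 left out (H2BC21 and H2BC5). Leaving out 1 library gave 0 to 2: 0 without DMSO 1 or DMSO 2, and 2 without apigenin 2 (H2BC12 and H2BC5) or apigenin 3 (H2BC21 and H2BC5).

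The median log2 fold change of tested members (0.25) was 0.19 with no filter on low counts, 0.0875 with the length trend removed, 0.0894 with that removal and the replicate block, 0.15 and 0.20 with limma on the 2 filtered FPKM scales, 0.0376 on unfiltered FPKM, 0.19 with the trend removed and apigenin 3 left out, and 0.19 to 0.28 with 1 library left out. The log2 ratio of the summed share (0.24) moved by less than the spread between libraries under each denominator and each left-out library.

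Over all genes, 1060 were called; DESeq2 called 1689, no filter 1961, the length trend removed with the replicate block 1736, limma 655 (352 higher and 303 lower, against 419 and 641), 625 and 138 on the 3 FPKM settings, and leaving out 1 library 257 to 2903. Without DMSO 1, 2 or 3 or apigenin 1 it was 257, 324, 314 and 329, and without apigenin 2 it was 2903. Of the other listed genes 13 were called, 21 by DESeq2, 28 without a filter, 24 with the length trend removed, 28 with that and the replicate block, 3 on unfiltered FPKM, 26 with the trend removed and apigenin 3 left out, and 4 to 48 with 1 library left out.

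Same-numbered samples did not deviate together (correlations of -0.02, -0.02 and -0.05), so the numbers were not taken as pairs; the replicate block gave 1231 called genes and 1 called member, H2BC5 (0.58, adjusted p = 0.004). Under that block SLBP (0.23, adjusted p = 0.0532), HJURP (0.22, adjusted p = 0.0571) and NCAPD2 (-0.20, adjusted p = 0.0562) were not called. Signs turned for members near 0. H2BC4 was -0.0162 and -0.0086 with the length trend removed without and with the block, -0.0604 with it removed and apigenin 3 left out, and -0.0796 to 0.2064 with 1 library left out. H4C8 was -0.14 and -0.15 with the trend removed without and with the block, and -0.0549 to 0.1909 with 1 library left out. H2BC18 was 0.0009 with upper quartile factors, 0.15 with the trend removed and apigenin 3 left out, and -0.34 to 0.33 with 1 library left out. H3C6 was -0.0186 with the trend removed and apigenin 3 left out. H2AC17 was 0.0045 with limma on log2(FPKM + 0.1) and -0.8038 to 0.0724, H2BC11 -0.362 to 0.1294 and H3C13 -0.76 to 0.26 with 1 library left out. For each result that changed, the cause was not tested. Members under about 1 CPM rest on low counts in each library, which limits what their fold changes can show.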
